A study of Mus musculus with 9 samples.

Results

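The ubiquitin-specific proteases (USPs) were described in the cerebellum of transgenic mice that model spinocerebellar ataxia type 3 (SCA3). Members were the protein-coding mouse genes named Usp with a number and an optional letter, Usp18 excepted, and no measured value entered the choice. Of 54 such genes in the annotation (GENCODE vM21, GRCm38), 50 had a row among the 37816 genes with counts. Usp17la, Usp17lb, Usp17lc and Usp17ld had no row. Enough counts for a test were found for 46 members, and Usp9y, Usp17le, Usp26 and Usp44 were below that minimum.

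Total RNA of the cerebellum of 9 mice was sequenced, 3 in each of 3 groups, on a C57BL/6 background at 18 months of age. All mice carried human ATXN3 on a yeast artificial chromosome (YAC). The tract of CAG repeats in this transgene holds 15 units in the control mice (15Q) and 84 units in the other mice, untreated or given IGF-1 (84Q and 84Q+IGF-1). The 84Q+IGF-1 mice received weekly intraperitoneal IGF-1 (insulin-like growth factor 1) at 50 mg/kg from 9 months of age onwards. The methods of the study describe PBS injections in the other mice, whereas the labels call them untreated. The 15Q and 84Q mice are separate transgenic lines from different sources, and neither mice without a transgene nor 15Q mice given IGF-1 were among the samples, so that repeat length and line cannot be told apart.

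Ubiquitin is joined to proteins by a cascade of E1, E2 and E3 enzymes and is removed again by deubiquitinases. The USPs are the largest family of these and are cysteine proteases, most of which cut the bond between ubiquitin and its substrate or between the units of a chain. Ataxin-3, the protein whose polyglutamine tract is expanded in SCA3, is itself a deubiquitinase, but of the separate Josephin family. In neurons, USPs are known to act at the proteasome, at endosomes and synapses, at the mitochondrial surface and on histones.

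The libraries held 17482654 to 58269196 counts, and the medians were 40249019 (15Q), 22808219 (84Q) and 26914560 (84Q+IGF-1). Summed markers of granule cells and Purkinje cells were high in every library, at 3892 to 4519 CPM (counts scaled to the TMM-adjusted library total) and 6900 to 7774 CPM, with overlapping groups, and the groups of astrocyte and Bergmann glia markers overlapped too. Microglia markers summed to 142 to 168 CPM in 15Q, to 170 to 209 CPM in 84Q and to 152 to 165 CPM in 84Q+IGF-1. The 84Q libraries thus stood above both other groups. In 84Q against 15Q, 2 of 6 microglia markers and 1 of 6 Purkinje cell markers had an adjusted p under 0.1 (edgeR quasi-likelihood test). The share of all genes tested was 4.8%. In 84Q+IGF-1 against 15Q, 1 astrocyte or Bergmann glia marker and 1 oligodendrocyte marker passed, against 3.67% of all genes. Oligodendrocyte markers summed to 3005 to 3948 CPM in 84Q+IGF-1, below the 3988 to 4287 CPM of 15Q, while 84Q overlapped both. Markers of intestine summed to 17.5 to 27.7 CPM in 15Q and to at most 6.07 CPM in the other libraries, and those of liver, epidermis and skeletal muscle were also higher in all 3 of the 15Q libraries. Choroid plexus markers stood at 444 to 984 CPM in 15Q replicates 1 and 3 and in 84Q replicate 2, and at most at 44.2 CPM elsewhere. Each group held mice of both Xist states, and 5 of the 9 libraries had at most 31 Xist counts.

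Upstream sequences were read for members that differ in CpG content and in level. These are the 250 bases before the RefSeq start (GRCm38.p6), each on the strand of its gene. Usp34 and Usp4 are the members with an adjusted p under 0.1 that have an entry in the sequence table, and Usp26, a gene known from testis, is shown for contrast. They were chosen after their values were seen. Capitals mark CG dinucleotides, and the windows lie at chr11:23306645-23306894 on the plus strand, chr9:108347581-108347830 on the plus strand and chrX:51801234-51801483 on the minus strand.
Usp34: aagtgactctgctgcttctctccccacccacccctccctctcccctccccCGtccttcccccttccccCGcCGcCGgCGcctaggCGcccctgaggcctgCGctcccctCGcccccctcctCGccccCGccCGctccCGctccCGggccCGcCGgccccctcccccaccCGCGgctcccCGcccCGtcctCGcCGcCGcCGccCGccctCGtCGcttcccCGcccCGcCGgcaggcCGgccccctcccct
Usp4: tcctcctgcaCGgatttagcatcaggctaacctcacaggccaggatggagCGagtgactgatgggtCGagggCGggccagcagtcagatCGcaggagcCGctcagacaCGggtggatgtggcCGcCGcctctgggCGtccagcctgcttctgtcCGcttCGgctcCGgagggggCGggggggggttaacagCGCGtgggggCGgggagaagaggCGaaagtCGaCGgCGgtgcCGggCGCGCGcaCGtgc
Usp26: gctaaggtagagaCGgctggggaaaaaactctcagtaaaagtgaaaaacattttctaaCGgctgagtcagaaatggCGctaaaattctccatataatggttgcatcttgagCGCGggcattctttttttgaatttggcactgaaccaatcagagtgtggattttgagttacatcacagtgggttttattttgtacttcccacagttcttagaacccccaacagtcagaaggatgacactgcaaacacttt
The window of Usp34 held 30 CG dinucleotides, that of Usp4 held 26 and that of Usp26 held 5. The observed CG number relative to that given by base composition was 0.981, 0.906 and 0.473, respectively. Usp34 and Usp4 were abundant in all 9 libraries, while Usp26 had 1 count in each of 3 libraries and 0 in the other 6. Other members did not keep this order. Usp19 had a ratio of 0.454 at a mean of 132 TPM, and Usp11 had 0.325 at 76.9 TPM. Usp9y had 0.655 with 22 counts, all in a single library. Whether CG content goes with level over the members was not tested.

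Such windows were in the table for 38 members. Of these, 29 (76.3%) had an observed over expected CG ratio of at least 0.6, against 52.4% of 14687 protein-coding genes in the counts. Median GC content was 65.0% in the members and 57.6% in all these genes. Both strands were searched for short motifs. GGGCGG, the core of a GC box, was in 25 of the 38 members and in 49.5% of all windows, CCAAT was in 9 members and 35.7% of all, and TATAAA was in 2 members and 9.42% of all. CACGTG, an E-box to which clock proteins and Myc proteins can bind, was in Usp4, Usp16 and Usp31, and in 7.35% of all windows. These are matches of letters, described without a test, and the GGGCGG search overlaps in content with the CG count.

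USP transcripts were found at a wide range of levels. Per exon length, as TPM (counts per exon base, scaled to the same total in each library), the mean of the 9 libraries ran from 202 for Usp22 to 0.379 for Usp43 among the members tested. Their median was 39.6 TPM, against 14.4 TPM over all 19353 genes tested, and 40 of 46 stood above 10 TPM. The highest level, that of Usp22, was 207 ± 7.18 TPM (15Q), 197 ± 2.25 TPM (84Q) and 203 ± 3.87 TPM (84Q+IGF-1) (SD, n = 3). Usp22, the histone H2B deubiquitinase of the SAGA coactivator, was followed by Usp5, which takes apart free ubiquitin chains, at 155 TPM, and by Usp7, which acts on Mdm2 and p53, at 149 TPM. Usp5 and Usp7 lay within each other's spread over libraries, at 146 to 164 TPM and 135 to 161 TPM. With the longest coding transcript as length in place of all exons, Usp7 came first, Usp22 came after it and the ranks of the members kept a Spearman correlation of 0.936 with the first order.

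**Figure D1:**
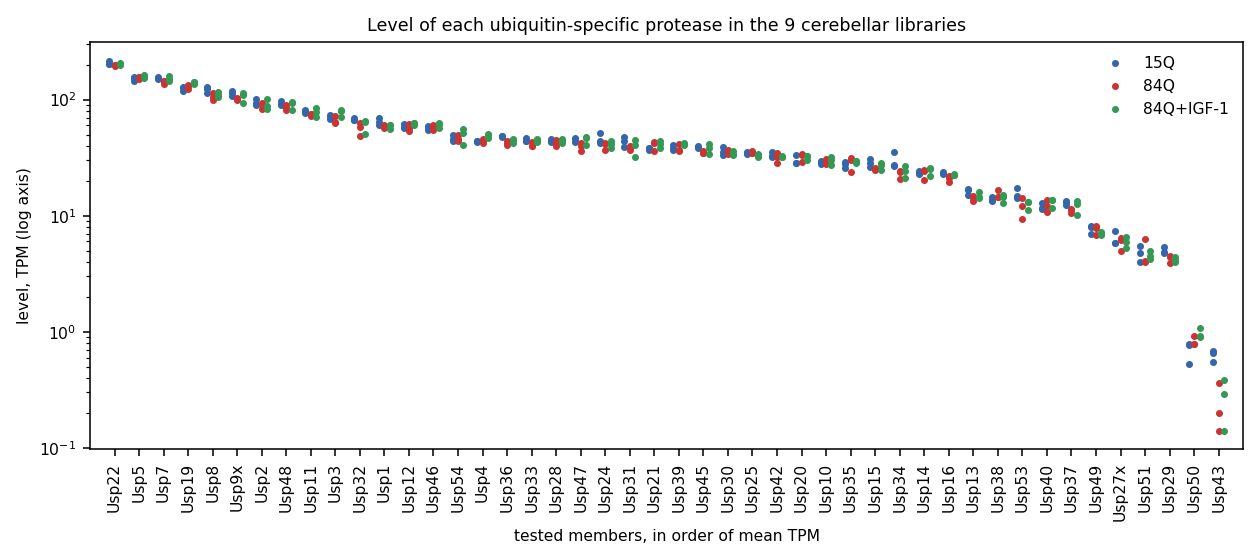
Level of the 46 tested members in each of the 9 libraries, in TPM on a log axis, ordered by mean and colored by group (3 points per group). The points of the 3 groups lie together for most members over a range from 202 TPM for Usp22 to 0.379 TPM for Usp43, where 15Q stands above the others.

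The endosomal and membrane proteases Usp19 and Usp8 came next, at 132 and 113 TPM, with Usp9x, a very large protease needed in neuronal development, at 107 TPM. Usp2, known for its rhythmic transcripts, stood at 91.3 TPM. The low end held Usp29, an imprinted gene at the Peg3 locus, at 4.50 TPM, Usp50, which is held to lack protease activity, at 0.831 TPM, and Usp43. Usp17le had 1 count in 1 library, and Usp44, a histone deubiquitinase of dividing cells, had 0 to 5 counts per library. A floor of 3 counts is 0.0515 to 0.172 CPM in these libraries. Of the members tested, Usp43 came down to it, with 3 counts in 84Q replicate 3.

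Usp9y, the copy on the Y chromosome, had 22 counts in 84Q+IGF-1 replicate 1 and 0 counts in the other 8 libraries. Other Y-linked genes were counted in 5 libraries. Ddx3y had 1149 to 2261 counts in 15Q replicate 1, 84Q replicates 2 and 3 and 84Q+IGF-1 replicates 1 and 3, and 1 to 14 counts in the others. Thus 4 of the 5 libraries with Y-linked counts had no count on Usp9y, and its counts came from a single library.

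Some close relatives in the family stood at similar levels and others far apart. The coding sequences of Usp12 and Usp46, which are both activated by Wdr48 and act on neuronal receptors, were identical at 77.9% of aligned bases, and the ratio of their TPM values was 0.938 to 1.116 over the 9 libraries. That ratio was 0.728 to 0.906 for Usp25 and Usp28, 0.612 to 0.848 for Usp20 and Usp33, and 1.19 to 1.53 for Usp36 and Usp42. Usp5 and Usp13 were identical at 69.7%, and Usp5 stood 8.53 to 11.7 times higher. Usp22 was 27.4 to 39.1 times higher than Usp27x and 31.5 to 53.7 times higher than Usp51, both X-linked genes that can take its place beside the SAGA adaptors. Usp4 was 1.44 to 1.89 times higher than Usp15, a relative with 67.6% identity. The ratio of Usp53 to Usp54 was 0.333 ± 0.0151 for the 15Q libraries, 0.255 ± 0.0354 for 84Q and 0.255 ± 0.0224 for 84Q+IGF-1 (SD, n = 3). At most 0.428% of the stretches of 31 bases in a tested member also occurred in another member, so few reads can be split between members. Overlap with other genes was larger. The exons of Usp49 overlapped a gene on the same strand at 51.2% of their bases, and those of Usp14 overlapped Thoc1 on the opposite strand at 26.0%. The strand setting of the counting is not stated, and reads of these overlaps cannot be assigned with certainty.

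The first comparison, 84Q against 15Q, asks what the expanded repeat goes with. A gene was called here when its adjusted p was under 0.1 and its level differed by at least 1.5-fold. None of the 46 members was called, where 2.14% of all genes tested were. In the edgeR quasi-likelihood test no member passed the adjusted p at any fold, against 4.8% of all genes, and 6 members had an unadjusted p under 0.05, against 19.4%. These 6 members were Usp43, Usp34, Usp36, Usp53, Usp8 and Usp32, all with lower values in 84Q, as were 10.4% of all genes at that p. DESeq2 also called no member. Values were higher in 84Q for 19 members (49.7% of all genes) and lower for 27, and the median log2 fold change was -0.04 (all genes -0.0019). The fold change was under 1.5 for 45 members and under 1.1 for 32, and the 95% interval stayed within 1.5-fold in either direction for 43 members. The exceptions were Usp43 and Usp50, with few counts, and Usp53, whose interval ended just beyond the limit.

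**Figure D2:**
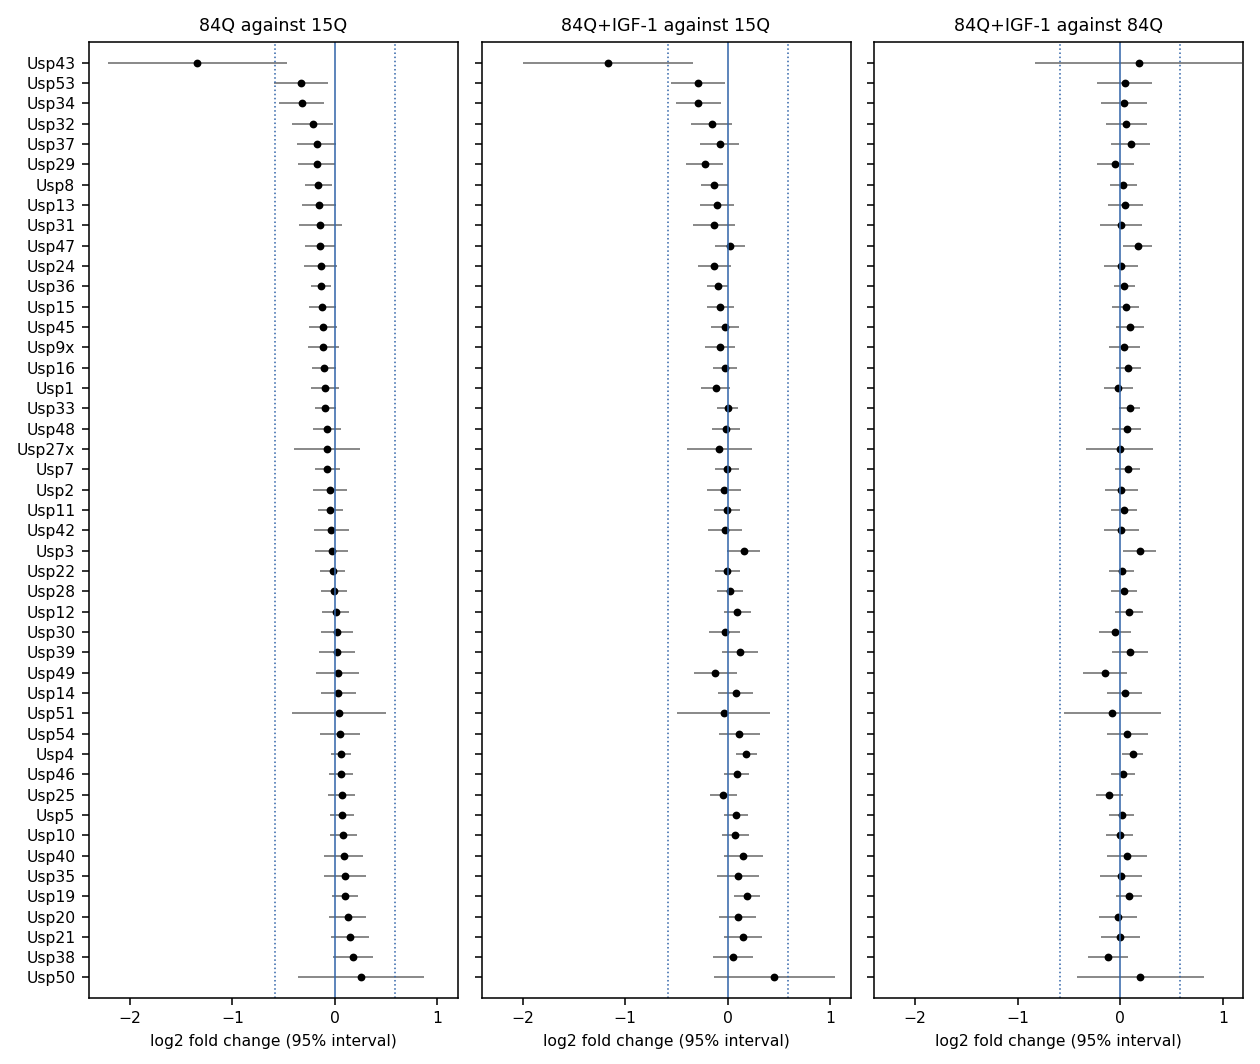
Fitted log2 fold change (point) and 95% interval (line) of the 46 tested members in the 3 comparisons, ordered by the value in 84Q against 15Q, with dotted lines at 1.5-fold. Nearly all intervals lie between the dotted lines, and Usp43 at -1.34 and -1.16 is the exception on the left.

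Usp43 (ENSMUSG00000020905.11, chromosome 11, 67854523 to 67922153, minus strand) is a little studied member with low counts in cerebellum. It had 0.781, 0.646 and 0.787 CPM in the 15Q replicates, from 21, 26 and 46 counts. It had 0.241, 0.4395 and 0.171 CPM in 84Q and 0.172, 0.452 and 0.343 CPM in 84Q+IGF-1, from 3 to 12 counts per library. All 3 of the 15Q libraries were above the other 6. The log2 fold change was -1.34 ± 0.40 (SE, adjusted p = 0.108) in 84Q against 15Q and -1.16 ± 0.38 (adjusted p = 0.149) in 84Q+IGF-1 against 15Q. Usp43 passed the filter on low counts only through the 15Q libraries, where it was high, and was under it when 84Q and 84Q+IGF-1 were fitted alone, with 45 members left. Lower values in the other groups were thus favored by the filter, and the fold changes and p of Usp43 are given as a description. The 15Q libraries, in which Usp43 was high, are also those with more intestine, liver, epidermis and muscle marker counts. Summed epidermis markers, for example, stood at 16.5 to 27.6 CPM in 15Q, 8.70 to 9.63 CPM in 84Q and 8.73 to 9.22 CPM in 84Q+IGF-1, and the part of such RNA in the Usp43 values was not tested. Fewer cells of a type and less RNA per cell cannot be told apart in such bulk samples.

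Usp34 (ENSMUSG00000056342.16, chromosome 11, 23306895 to 23490560, plus strand) encodes a very large protease that acts on axin in Wnt signaling. It had 123, 125 and 158 CPM in 15Q, 114, 111 and 99.1 CPM in 84Q, and 99.9, 123 and 110 CPM in 84Q+IGF-1. The 84Q libraries were all below those of 15Q, and 15Q replicate 3 stood apart at the top. The log2 fold change was -0.33 ± 0.10 (SE, adjusted p = 0.122), and without 15Q replicate 3 it was -0.19 (adjusted p = 0.414). The adjusted p ranged from 1.46e-04 to 0.414 over the alternatives. Usp53, a protein of cell junctions needed for hearing, had 44.2, 46.4 and 53.1 CPM in 15Q, 45.1, 38.5 and 30.5 CPM in 84Q and 36.5, 40.7 and 40.9 CPM in 84Q+IGF-1. The 84Q values of Usp53 spread widely and overlapped 15Q, and the log2 difference was -0.33 ± 0.12 (adjusted p = 0.173). It was -0.19 (adjusted p = 0.473) without 15Q replicate 3 and -0.47 (adjusted p = 0.0654) without 84Q replicate 1, and over all alternatives the adjusted p ranged from 0.00218 to 0.473. Usp36, the nucleolar protease, was lower by a small and even step, with 92.7, 92.2 and 89.2 CPM in 15Q, 82.1, 85.9 and 81.1 CPM in 84Q, and 83.9, 85.7 and 86.8 CPM in 84Q+IGF-1. All 6 libraries with the long repeat were below 15Q, and 84Q against 15Q had a log2 difference of -0.14 ± 0.05 (adjusted p = 0.141).

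**Figure D3:**
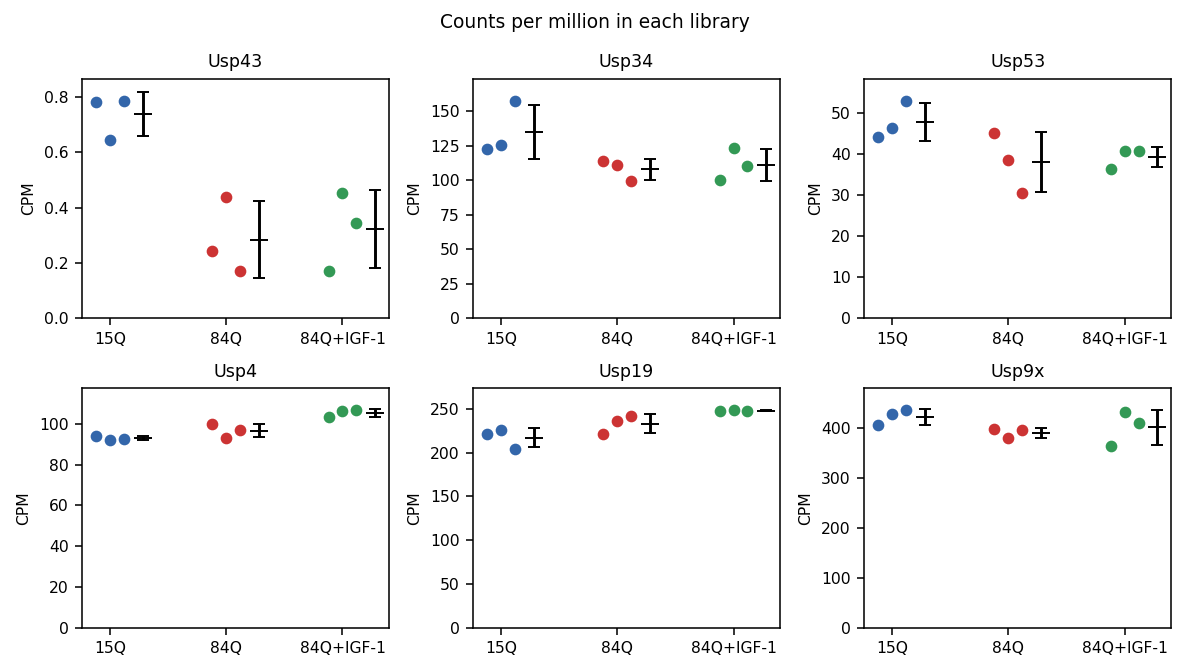
CPM in each library (colored points, by group) with mean and SD (black bars, n = 3) for Usp43, Usp34, Usp53, Usp4, Usp19 and Usp9x, each axis from 0. The 15Q points of Usp43 lie above all others, and the 84Q+IGF-1 points of Usp4, at 103 to 107 CPM, lie above all others of that gene.

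Members with known roles at the proteasome and on free chains differed little. Usp14, the deubiquitinase bound to the proteasome, had 47.3, 48.4 and 49.1 CPM in 15Q, 52.8, 43.3 and 52.2 CPM in 84Q, and 47.6, 53.05 and 52.2 CPM in 84Q+IGF-1. The groups overlapped, and 84Q differed from 15Q by 0.03 on the log2 scale, with a 95% interval from -0.14 to 0.20. For Usp5 it was 0.07 (-0.05 to 0.19), and for its relative Usp13 it was -0.16 (-0.32 to 0.01). All 3 of the 84Q libraries of Usp13, at 26.3 to 28.2 CPM, were below those of 15Q, at 28.7 to 31.6 CPM. In the 84Q+IGF-1 libraries Usp13 had 28.2, 30.3 and 26.6 CPM, which overlapped both other groups. Usp5 had 180, 177 and 164 CPM in 15Q, 183, 177 and 187 CPM in 84Q, and 186, 178 and 186 CPM in 84Q+IGF-1. The lowest value of Usp5 was that of 15Q replicate 3, and the groups overlapped.

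The SAGA proteases Usp22, Usp27x and Usp51 had log2 fold changes of -0.02, -0.08 and 0.04 in 84Q against 15Q. The interval was narrow for Usp22 (-0.14 to 0.10) and wide for Usp51 (-0.42 to 0.49), which had 2.19 to 3.59 CPM. Usp22 had 261, 245 and 243 CPM in 15Q, 242, 245 and 251 CPM in 84Q, and 259, 249 and 239 CPM in 84Q+IGF-1, and no group stood apart. Usp27x had 5.42 to 7.82 CPM over the 9 libraries. Their adaptor Atxn7l3 stood at 0.17 on this scale (adjusted p = 0.170). Among the proteases bound by Wdr48, Usp1, which acts in DNA crosslink repair, had -0.10, Usp12 0.01 and Usp46 0.06, and Wdr48 itself had -0.04 (adjusted p = 0.657). Usp46, which acts on glutamate receptors and is known from mouse behavior, had 114, 107 and 114 CPM in 15Q, 118, 109 and 122 CPM in 84Q, and 115, 120 and 120 CPM in 84Q+IGF-1. The 84Q+IGF-1 libraries of Usp46 lay just above 15Q, at a log2 difference of 0.09 ± 0.05 (adjusted p = 0.423). Usp12 had 63.9 to 75.7 CPM and Usp1 had 51.8 to 63.2 CPM, with overlapping groups in 84Q against 15Q.

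Of the other proteases of chromatin and the nucleolus, Usp7 and Usp48 were the most abundant. Usp7 had 292, 297 and 297 CPM in 15Q, 286, 285 and 270 CPM in 84Q, and 286, 291 and 307 CPM in 84Q+IGF-1. The 84Q libraries of Usp7 were the lowest 3, the gap to 84Q+IGF-1 being very small, with a log2 difference of -0.07 ± 0.05 (adjusted p = 0.498) from 15Q and 0.07 ± 0.05 (adjusted p = 0.969) between 84Q+IGF-1 and 84Q. Usp48, a nuclear protease of histone H2A, had 201 to 229 CPM and a log2 difference of -0.08 ± 0.06 in 84Q against 15Q. Usp16, an H2A deubiquitinase of mitosis, had -0.11 ± 0.06, Usp42 had -0.04 ± 0.08 and Usp49, an H2B deubiquitinase, had 0.03 ± 0.10, with adjusted p of 0.320, 0.846 and 0.904. Usp21, a nuclear protease of H2A, had 44.8, 45.4 and 42.2 CPM in 15Q, 43.5, 51.2 and 52.3 CPM in 84Q, and 53.7, 48.7 and 44.5 CPM in 84Q+IGF-1. Its 84Q and 84Q+IGF-1 libraries each reached from the 15Q range to above 48 CPM.

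Of the membrane and mitochondrial group, Usp8, which sorts receptors at endosomes, had 119.7, 129 and 132 CPM in 15Q and 120.3, 113 and 107 CPM in 84Q. It had 117, 110 and 120.5 CPM in 84Q+IGF-1, and the groups overlapped. The log2 fold change of Usp8 in 84Q against 15Q was -0.16 ± 0.06 (adjusted p = 0.181). Usp32 had 127, 126 and 131 CPM in 15Q, 122, 113 and 96.2 CPM in 84Q, and 99.4, 123 and 123 CPM in 84Q+IGF-1, with a log2 difference of -0.22 ± 0.09 (adjusted p = 0.228) in 84Q against 15Q. Usp30, the protease of the outer mitochondrial membrane that opposes mitophagy, had 0.02 (-0.13 to 0.17). Usp30 had 58.9, 50.1 and 52.1 CPM in 15Q, 52.9, 57.2 and 52.8 CPM in 84Q, and 53.4, 49.9 and 54.3 CPM in 84Q+IGF-1, and the groups overlapped. Usp19, anchored in the endoplasmic reticulum, had 221.8, 225 and 205 CPM in 15Q and 221, 236 and 242 CPM in 84Q, a log2 difference of 0.10 ± 0.06 (adjusted p = 0.36). Usp20 and Usp33, a related pair that acts on receptors at the cell surface, had 0.12 and -0.09. Usp33 had 107, 106 and 110 CPM in 15Q, 105, 97.9 and 100 CPM in 84Q, and 106, 110 and 107 CPM in 84Q+IGF-1, and its 84Q libraries were below those of both other groups. Usp20 had 62.8 to 77.4 CPM, with overlapping groups. Usp9x had 404, 427 and 435 CPM in 15Q, 397, 378 and 395 CPM in 84Q and 362, 431 and 409 CPM in 84Q+IGF-1. Its 84Q libraries lay just below those of 15Q, at a log2 difference of -0.11 ± 0.07 (adjusted p = 0.390). Usp2 had -0.05 (-0.21 to 0.12), and the clock output gene Dbp had -0.12 (adjusted p = 0.555). The members with the smallest p among those with higher values in 84Q were Usp38, at 0.17 ± 0.09 (adjusted p = 0.313), Usp19 and Usp21, at 0.15 ± 0.09 (adjusted p = 0.362). Usp38 had 19.6, 20.8 and 18.6 CPM in 15Q, 21.1, 21.1 and 24.3 CPM in 84Q, and 18.8, 21.7 and 20.7 CPM in 84Q+IGF-1, and its 84Q libraries stood just above 15Q.

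The group of growth factor and stress signaling held Usp4, Usp10, Usp11, Usp15 and Usp2. Usp11, an X-linked gene of neuronal tissue, had 95, 94 and 88.1 CPM in 15Q, 89.3, 90.9 and 88.5 CPM in 84Q, and 85.7, 91.5 and 98.5 CPM in 84Q+IGF-1, with overlapping groups and a log2 difference of -0.04 ± 0.06 in 84Q against 15Q (95% interval -0.17 to 0.08). Usp15, its close relative, had -0.12 ± 0.06 (adjusted p = 0.297) and Usp10, bound by the stress granule protein G3bp1, had 0.08 ± 0.06 (adjusted p = 0.498). Usp2 had 111, 120 and 106 CPM in 15Q, 101, 115 and 111 CPM in 84Q, and 104, 121 and 105 CPM in 84Q+IGF-1, and no group stood apart.

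The proteases of DNA damage and the cell cycle are Usp25, Usp28, Usp37, Usp45 and Usp47. In 84Q against 15Q their log2 fold changes lay between -0.18 for Usp37 and 0.07 for Usp25, with adjusted p of at least 0.268. Usp37 had 34.2, 35.8 and 35.8 CPM in 15Q, 31.6, 31.955 and 30.1 CPM in 84Q, and 28.9, 37.2 and 34.3 CPM in 84Q+IGF-1. Its 84Q libraries were below 15Q, and its 84Q+IGF-1 libraries held both the lowest and the highest of all 9 values. Of the members held to have weak or no protease activity, Usp39, a splicing factor that has lost its catalytic residues, had 24.8, 23.4 and 22.1 CPM in 15Q, 23, 22.5 and 26.1 CPM in 84Q, and 25.7, 25.6 and 25.2 CPM in 84Q+IGF-1. The 84Q+IGF-1 libraries of Usp39 were above those of 15Q and overlapped 84Q, with a log2 difference from 15Q of 0.12 ± 0.08 (adjusted p = 0.453). Usp54 had 0.05 ± 0.09 in 84Q against 15Q, and Usp50 had 0.26 ± 0.28 from 11 to 35 counts per library. Usp50 had 0.409, 0.596 and 0.599 CPM in 15Q, 0.621, 0.615 and 0.741 CPM in 84Q, and 0.858, 0.715 and 0.685 CPM in 84Q+IGF-1. Usp24, a very large protease, was at -0.14 ± 0.07, Usp31 at -0.14 ± 0.09, Usp35 at 0.10 ± 0.09 and Usp40 at 0.08 ± 0.09, with adjusted p of at least 0.333. Usp3 was at -0.03 ± 0.07 (adjusted p = 0.847), Usp4 at 0.06 ± 0.05 (adjusted p = 0.525) and Usp29 at -0.18 ± 0.08 (adjusted p = 0.264).

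The libraries of 84Q and 15Q did not overlap for 14 members, 12 of them lower and 2 higher in 84Q, where 25.4% of all genes did not overlap (13.5% lower and 11.9% higher). Usp7, Usp9x, Usp13, Usp16, Usp29, Usp32, Usp33, Usp34, Usp36, Usp37, Usp43 and Usp45 were the lower ones, and Usp38 and Usp50 the higher ones. Summed over the members, the level was 2304, 2318 and 2362 TPM in the 15Q replicates, 2227, 2194 and 2161 TPM in 84Q, and 2203, 2353 and 2348 TPM in 84Q+IGF-1. The 84Q libraries were below all 15Q libraries, and those of 84Q+IGF-1 fell on both sides. The means were 2328 ± 30.2, 2194 ± 33.3 and 2301 ± 85.2 TPM for these groups in turn (SD, n = 3), so that 84Q stood at 0.943 times 15Q. Within 15Q and within 84Q the library with more counts had the higher sum, from 26925001 to 58269196 and from 17482654 to 28843999 counts. This order did not hold in 84Q+IGF-1, where replicate 3 had 29089855 counts and replicate 2, with the higher sum, had 26914560. It did not hold between groups either, as 84Q replicate 1, with 28843999 counts, had a lower sum than 15Q replicate 1, with 26925001. Summed microglia markers, given above, were also higher in all 84Q libraries than in 15Q, and the part of depth or of cell types in the summed levels was not tested.

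**Figure D4:**
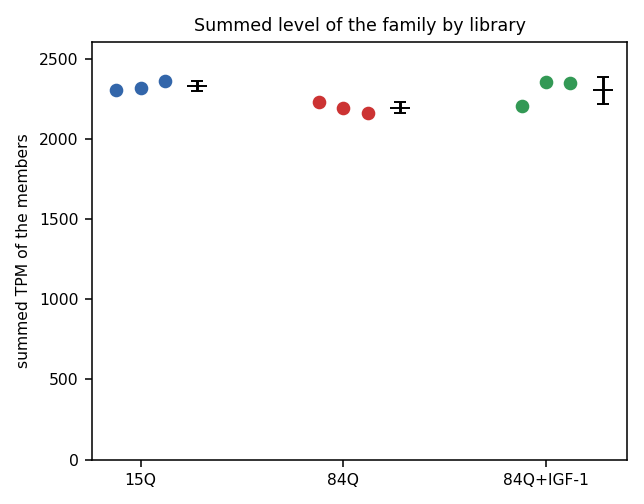
Summed TPM of the members in each library (colored points) with the mean and SD of each group (black bars, n = 3), on an axis from 0. The 84Q points, at 2161 to 2227 TPM, lie below the 15Q points, at 2304 to 2362 TPM, by a small part of the whole level.

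USP genes are long, and length went with the direction of the differences. The median exon length was 7640 bases in the members and 4421 bases in the 15157 protein-coding genes tested. The 10 members with at least 10000 bases had a median log2 fold change of -0.14 in 84Q against 15Q, and the 13 members under 5000 bases had -0.02. Over all protein-coding genes the same limits gave -0.12 for 1459 long genes and 0.07 for 8686 short genes. Across genes, which are not independent replicates and share the 9 libraries, the Spearman correlation of exon length with log2 fold change was -0.36 over the members and -0.31 over all these genes. In 84Q+IGF-1 against 84Q it was 0.14 and 0.17. Long members thus stood lower in 84Q by about as much as other long genes, and the part of library depth, whose median was also lower in 84Q, was not tested.

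**Figure D5:**
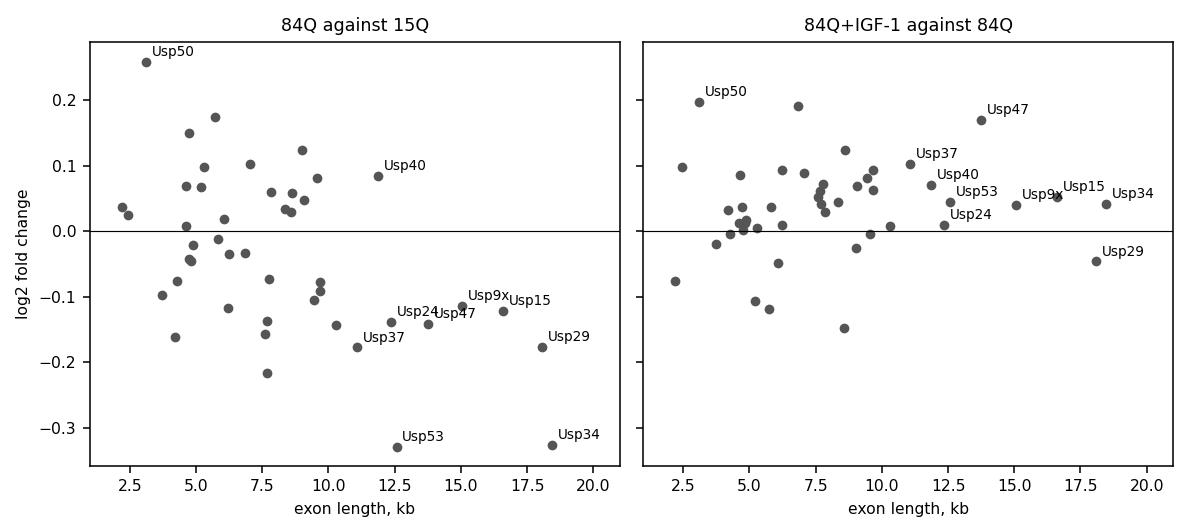
Log2 fold change of the tested members, Usp43 left out, against their exon length in kb, for 84Q against 15Q (left) and 84Q+IGF-1 against 84Q (right), 1 point per member. The 10 members with at least 10000 bases, among them Usp34, Usp53 and Usp29, lie below 0 on the left except Usp40, and most of them lie near or just above 0 on the right.

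The second comparison, 84Q+IGF-1 against 15Q, uses the same 15Q libraries as the first. No member was called, against 2.25% of all genes. Usp4 passed the adjusted p without reaching a 1.5-fold change, against 3.67% of all genes in either direction and 1.04% with higher values. In all, 6 members had an unadjusted p under 0.05, against 17.7%, and DESeq2 called no member. The median log2 fold change was -0.02, with 19 members higher (48.9% of all genes) and 27 lower.

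Usp4 (ENSMUSG00000032612.14, chromosome 9, 108347853 to 108392545, plus strand) is a protease of the spliceosome and of growth factor signaling. It had 94.0, 92.1 and 92.9 CPM in 15Q, 99.98, 93.4 and 97.1 CPM in 84Q, and 103, 106 and 107 CPM in 84Q+IGF-1. The 84Q+IGF-1 libraries were above the other 6, and the spread within groups was the smallest of the family, with an SD of 0.033 on the log2 scale. Usp4 rose by 0.18 ± 0.05 on the log2 scale (SE, adjusted p = 0.0719) against 15Q. The adjusted p ranged from 0.0194 with DESeq2 to 0.238 without 15Q replicate 3, and it was above 0.1 when any single library of these groups was left out. Against 84Q the difference was 0.12 ± 0.05 (adjusted p = 0.969).

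Usp19, whose gene lies near Usp4 on chromosome 9, had 247.7, 248.8 and 247.5 CPM in 84Q+IGF-1, above all libraries of the other groups. Its log2 fold change against 15Q was 0.19 ± 0.06 (adjusted p = 0.128). Usp3, a histone deubiquitinase, had 115, 118 and 123 CPM in 15Q, 125, 110.2 and 113 CPM in 84Q, and 142, 137 and 118 CPM in 84Q+IGF-1. Its log2 difference between 84Q+IGF-1 and 15Q was 0.16 ± 0.07 (adjusted p = 0.289), and all 3 groups overlapped. Among those with lower values, Usp34 had -0.28 ± 0.10 (adjusted p = 0.179) and Usp29 had -0.22 ± 0.08 (adjusted p = 0.189). Usp29 had 21.9, 21.4 and 23.7 CPM in 15Q, 20.6, 20.5 and 18.2 CPM in 84Q, and 19.6, 18.1 and 19.7 CPM in 84Q+IGF-1, and 15Q stood above the other 6 libraries. Groups did not overlap for 10 members in this comparison, 5 in each direction, against 24.7% of all genes (11.7% higher and 13.0% lower).

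The third comparison, 84Q+IGF-1 against 84Q, addresses the treatment. It uses the 84Q libraries of the first and the 84Q+IGF-1 libraries of the second, so that it is not independent of them. No member was called and none passed the adjusted p, and 0.0% of all genes did so. The smallest adjusted p of a member was 0.969, and DESeq2 called none. An unadjusted p under 0.05 was found for 3 members, against 4.68% of all genes, and all 3 had higher values, against 1.83%. These were Usp4, Usp3, at 0.19 ± 0.07, and Usp47, a protease of base excision repair, at 0.17 ± 0.07. Usp47 had 147, 155 and 156 CPM in 15Q, 148, 138 and 128 CPM in 84Q, and 144, 160 and 163 CPM in 84Q+IGF-1, and all the groups overlapped. On the lower side, Usp25 had -0.11 ± 0.06, Usp49 had -0.15 ± 0.10 and Usp38 had -0.12 ± 0.09. Usp25, a protease that is also known from immune signaling, had 45.4, 46.2 and 48.5 CPM in 84Q and 44.8, 44.2 and 41.1 CPM in 84Q+IGF-1, without overlap. Usp49 had 17.9, 17 and 14.9 CPM in 84Q and 15.2, 14.6 and 15.3 CPM in 84Q+IGF-1, with overlap. All 46 members were within 1.2-fold, and for 44 the 95% interval stayed within 1.5-fold, Usp43 and Usp50 being the other two.

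Values were higher in 84Q+IGF-1 than in 84Q for 36 of the 46 members, against 48.7% of all genes, with a median log2 fold change of 0.04. The number was 28 when 84Q+IGF-1 replicate 2 was left out, and 32 to 36 when any other library was. Of 34 deubiquitinases of other families, 21 had higher values in this comparison, with a median log2 fold change that was also 0.04. Of the cell type markers in the same comparison, all 6 of oligodendrocytes (median log2 difference -0.28), microglia (-0.21) and choroid plexus (-3.36) were lower. Choroid plexus markers stood at 984 CPM in 84Q replicate 2 and at 28.8 and 13.9 CPM in the other 84Q libraries. Higher values were found for 4 of 6 markers of granule cells (median 0.04) and 4 of 6 of Purkinje cells (0.04). For astrocytes and Bergmann glia it was 3 of 6 (0.0045). Of all these markers 0 passed the adjusted p, and their part in the family's values was not tested. The groups did not overlap for 5 members, against 8.46% of all genes (3.96% higher and 4.5% lower), with Usp4, Usp7, Usp19 and Usp33 higher and Usp25 lower. For the proteasome and chain group, Usp14 had 0.04 (-0.13 to 0.22), Usp5 had 0.01 (-0.11 to 0.13) and Usp13 had 0.05 (-0.12 to 0.22). Usp22 had 0.02 (-0.11 to 0.14) and Usp9x had 0.04 (-0.11 to 0.19).

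A further contrast set all 6 libraries with the long repeat against 15Q, and so uses the libraries of the comparisons above. Of the members 1 was called, with a lower level, against 3.51% of all genes in either direction and 3.23% with lower levels. This was Usp43, which entered the test only through the 15Q libraries (above), so that the count of members called gives it no support. Its log2 difference was -1.25 (SE 0.32, adjusted p = 0.0507), from 3 to 12 counts in each of the 6 libraries, and with no filter on low counts the adjusted p was 0.00908. The adjusted p ranged from 0.00908 to 0.228 over the alternatives, and the call was lost without 15Q replicate 2 (adjusted p = 0.139) or replicate 3 (adjusted p = 0.228), with Xist as a covariate (adjusted p = 0.116) and at a threshold of 0.05. Of the exons of Usp43, 12.8% overlapped 9130017K11Rik on the opposite strand, which had 0 to 11 counts per library. Usp34 passed the adjusted p without a 1.5-fold change, at -0.30 ± 0.09 (adjusted p = 0.0708), against 9.75% of all genes (6.11% with lower levels), and without 15Q replicate 3 it had -0.17 (adjusted p = 0.362). Its adjusted p was also above 0.1 without 15Q replicate 2 (0.138), 84Q replicate 3 (0.127) or 84Q+IGF-1 replicate 1 (0.115). Its overlap with Ahsa2 on the opposite strand covered 11.6% of its exons, and Ahsa2 had 0.04 (adjusted p = 0.826). The 6 libraries did not overlap those of 15Q for 5 members, against 12.3% of all genes. They were Usp29, Usp32, Usp36 and Usp43, with lower values, and Usp50, with higher values.

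Genes around the family were read from lists in the same fit. Of 34 deubiquitinases of other families, none was called in any of the 4 contrasts. The metalloprotease Mpnd passed the adjusted p in 84Q against 15Q (log2 fold change 0.26, adjusted p = 0.0660) and Josd1, a relative of ataxin-3, in 84Q+IGF-1 against 15Q (0.30, adjusted p = 0.0636), both without reaching 1.5-fold. None of 10 cofactors of USPs, such as Wdr48 and Atxn7l3, passed in these comparisons. With all 6 libraries of the long repeat against 15Q, 6 of the other deubiquitinases and 1 cofactor passed the adjusted p, against 9.75% of all genes. The polyubiquitin gene Ubb passed the adjusted p in 84Q against 15Q (0.26, adjusted p = 0.0614) and with all 6 libraries of the long repeat (0.24, adjusted p = 0.0342), with higher values and under 1.5-fold. None of 11 clock genes passed in any contrast.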

How the data were processed

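Cerebellar RNA of 9 mice was sequenced as strand-specific, paired-end libraries, and the groups and replicate numbers are those of the labels. The deposited values are counts per gene, which the authors made without normalization; the submitters' processing notes name bcl2fastq 2.20, Trimmomatic 0.36, HISAT2 2.2.0 and featureCounts, and the genome was GRCm38.p6. The annotation and strand setting of the counting are not given in the sources used here. Each replicate is a separate mouse, and replicates of a group differed beyond counting noise (chi-square of 9.82 to 16.1 per gene, which would be near 1 otherwise).

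Differential expression was tested with the quasi-likelihood test of edgeR 4.0.16 (R 4.3.3) in 1 fit to all 9 libraries, with TMM scaling, the filter filterByExpr and Benjamini-Hochberg adjustment over 19353 genes. The thresholds of a call were 0.1 for the adjusted p and 1.5 for the fold, those of the study's methods. All adjusted p-values in the text are from this test, two-sided, unless DESeq2 1.42.0 is named. Standard errors were derived from the F statistic. TPM used the union of exon lengths in GENCODE vM21, in which 37681 genes of the counts had a position. Upstream windows came from RefSeq. Intervals and floors at 3 counts cover the spread of these libraries and counting error only.

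Values per library were given for the member called and for the 3 members with the smallest p in each direction of the 3 comparisons between single groups. Members of a list known from neurons, the proteasome or the sex chromosomes are given per library or by their range. Other members are given by counts, ranges or fold changes, and Usp32, Usp53 and Usp50 were added after their values were seen. The members and lists were chosen with earlier results of these data known. Alternatives were DESeq2 or its size factors, a threshold of 0.05, no fold threshold, all genes without the low-count filter, robust shrinkage, a replicate block, an Xist covariate, fits to the compared groups alone, and 9 fits that each omit a library. Of a list of genes for ubiquitin and its E1 enzymes, Ubb is given and the rest is not reported here. The steps were tested on simulated data before use.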

Additional observations from a re-analysis of the deposited data

How the results depend on the processing

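Under the alternatives, the 20 results of members called, past the adjusted p or among the smallest p of a comparison kept their direction and their side of the call (adjusted p and fold together) 347 times, gained the call 6 times and lost it 5 times, and none of these reversed. All of these results except those of Usp43 had a fold under 1.5, so that an unchanged side of the call mostly restates the small fold. The alternatives that change only a threshold reuse the main fit, and direction was fixed there. By the adjusted p alone, Usp4 passed in 8 of 17 fits for 84Q+IGF-1 against 15Q, and Usp34 in 10 of 16 for all 84Q libraries against 15Q. Over all 46 members the sign changed under at least 1 alternative for 14 members in 84Q against 15Q, 14 in 84Q+IGF-1 against 15Q, 26 in 84Q+IGF-1 against 84Q and 10 in all 84Q libraries against 15Q, with log2 differences between -0.08 and 0.18 and none past the threshold. Without the filter on low counts, 1 member was called in 84Q against 15Q (Usp43, against 2.71% of all 37816 genes), 2 in 84Q+IGF-1 against 15Q (Usp43 and Usp9y, against 3.4%) and 1 in 84Q+IGF-1 against 84Q (Usp9y, from the 22 counts of a single library, against 0.444%). Without a fold threshold, 1 member passed in 84Q+IGF-1 against 15Q (Usp4) and 2 passed in all 84Q libraries against 15Q (Usp43 and Usp34). In the latter contrast 0 were called at an adjusted p under 0.05, 0 with Xist as a covariate and 0 with the replicate block, where Usp43 had an adjusted p of 0.1005. Replicate numbers are shared by the groups, but the deviations of same-numbered libraries correlated at -0.31 to 0.08, and the numbers were not taken as pairs; the block changed no other count of members called. When each library was left out in turn, the count was 0 to 1 in 84Q against 15Q (Usp43 called without 84Q replicate 2 or 84Q+IGF-1 replicate 1), 0 to 1 in all 84Q libraries against 15Q (0 without 15Q replicate 2 or 3) and 0 in the other comparisons. The summed level of 84Q relative to 15Q was 0.962 with CPM in place of TPM. The cause was not tested. Library totals limit the rare members, as 3 counts of Usp43 equalled 0.171 CPM in the smallest library.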
